A study of Mus musculus with 47 samples.

Results

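The binding of 2 bZIP transcription factors, ATF3 and FOSL2, was compared in control NMuMG cells after 48 h of TGFβ1. NMuMG, a mouse mammary epithelial cell line, loses its epithelial form under TGFβ1. The sites were the peaks of the control ATF3 list (45716) and of the control FOSL2 list (3444), 49160 of the 806216 peaks in the 32 lists of the series. Each was placed in 1 of 3 classes: peaks of ATF3 with no FOSL2 peak over them (45610), peaks of FOSL2 with no ATF3 peak over them (3338), and 106 sites where peaks of both overlapped by at least 1 bp. Each shared site paired 1 ATF3 peak with 1 FOSL2 peak.

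The cells of both libraries carried the control genotype and had received 5 ng/ml TGFβ1; the series also holds Pbrm1 knockout (KO) cells and untreated cells (0 h). ATF3 was precipitated from chromatin crosslinked first with disuccinimidyl glutarate and next with formaldehyde, and FOSL2 from chromatin crosslinked with formaldehyde alone, with different antibodies. Each factor had 1 library, so no difference below has a replicate check or a test, and factor, antibody and crosslink cannot be told apart. The labels do not say whether the control cells were 1 clone. Ranges in brackets after a share are 95% intervals by the exact Clopper-Pearson method and allow for counting error alone. The reads behind each list are unknown. Fold enrichment, the ratio of ChIP to input that the authors deposited for each peak, ranks peaks within a list. As a check of the cell type at 0 h, 12 of 14 epithelial marker genes had H3K4me3 within 2 kb of a gene end (all but Elf3 and Ehf), against 7 of 17 markers of other cell types and 63.4% of all protein-coding genes.

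FOSL2, also called Fra-2, belongs to the FOS family and binds DNA as a dimer with a JUN protein, preferring the AP-1 site, also known as the TPA response element. ATF3 is a stress-induced member of the ATF/CREB family that can pair with itself, with JUN proteins or with C/EBP relatives, and so can read the AP-1 site, the longer cAMP response element (CRE) or a composite C/EBP-ATF site. Both are induced by TGFβ in epithelial cells. Without treatment both lists were nearly empty, with 20 ATF3 peaks and 7 FOSL2 peaks at 0 h.

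Promoter windows under FOSL2 peaks held the AP-1 word far more often than those under ATF3 alone. RefSeq windows of GRCm38.p6 (250 bases before to 50 after a transcription start, 32851 windows of 27025 genes) were searched on both strands for the AP-1 heptamer TGACTCA (reverse complement TGAGTCA), the palindromic CRE TGACGTCA and the C/EBP-ATF composite TGATGCAA (reverse complement TTGCATCA). None of these words contains another. A FOSL2 peak overlapped 87 windows of 82 genes, and 67 of them (77.0%; 66.8 to 85.4) held the AP-1 heptamer. An ATF3-only peak without FOSL2 overlapped 12866 windows, of which 331 (2.57%; 2.31 to 2.86) held it. The share over all windows was 5.20% (4.96 to 5.45). The heptamer was in 41 of 55 windows under a FOSL2-only peak (61.0 to 85.3%) and in 26 of 32 at shared sites (63.6 to 92.8%). These intervals overlap, and windows under a FOSL2-only peak may also hold a separate ATF3-only peak.

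The following promoter stretches show FOSL2 sites, each up to 60 bases to either side of the FOSL2 summit and ending before the transcription start, 5′ to 3′ on the strand of the gene, with motif letters in capitals. The first 3 had a FOSL2-only peak and are the strongest by fold among 8 promoters. These were promoters of genes with a single window, no gene span under the bases before the start, and the summit in those bases. Sprr1a encodes a cornified envelope precursor of squamous epithelium, Mmp13 a collagenase and Dhrs9 a retinol dehydrogenase. The other 4 come from the 11 shared promoters of that kind, in which Prn and Prnp have the same stretch, and were chosen after their values were seen. Cav2 encodes caveolin 2, Ezr the membrane linker ezrin, F11r the tight junction protein JAM-A, and Dusp1 a phosphatase that switches off MAP kinases.
Sprr1a (chr3:92485938-92486058, minus strand): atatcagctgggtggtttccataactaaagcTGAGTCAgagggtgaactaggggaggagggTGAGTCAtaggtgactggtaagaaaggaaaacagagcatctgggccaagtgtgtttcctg
Mmp13 (chr9:7272420-7272513, plus strand): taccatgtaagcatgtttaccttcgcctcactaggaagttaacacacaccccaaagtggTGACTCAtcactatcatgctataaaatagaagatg
Dhrs9 (chr2:69380374-69380461, plus strand): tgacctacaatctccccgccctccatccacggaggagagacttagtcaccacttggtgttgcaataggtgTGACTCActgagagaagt
Cav2 (chr6:17281031-17281151, plus strand): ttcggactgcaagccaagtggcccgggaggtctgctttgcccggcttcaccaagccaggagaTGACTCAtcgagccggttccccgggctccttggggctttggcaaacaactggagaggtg
Ezr (chr17:6782781-6782866, minus strand): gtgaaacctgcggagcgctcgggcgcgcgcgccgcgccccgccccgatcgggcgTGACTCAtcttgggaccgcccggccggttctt
F11r (chr1:171437396-171437516, plus strand): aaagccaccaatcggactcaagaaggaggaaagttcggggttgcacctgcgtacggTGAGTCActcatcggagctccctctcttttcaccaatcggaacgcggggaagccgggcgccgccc
Dusp1 (chr17:26508555-26508675, minus strand): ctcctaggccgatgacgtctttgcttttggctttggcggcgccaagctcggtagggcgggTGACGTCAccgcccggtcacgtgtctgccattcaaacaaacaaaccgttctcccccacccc
In Sprr1a there are 2 AP-1 heptamers, and the other 5 apart from Dusp1 hold 1 each. Among those 11 promoters Dusp1 was the only 1 with the CRE and no AP-1 heptamer in the stretch, and Fbxo4 was the only 1 with no motif. The middle of the nearest motif lay 4 bp from the FOSL2 summit in Sprr1a, 2 bp in Mmp13, 13 bp in Dhrs9, 5 bp in Cav2, 3 bp in Ezr, 1 bp in F11r and 3.5 bp in Dusp1.

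Across all FOSL2 peaks over a promoter window the summit lay close to the heptamer. Of 49 FOSL2-only peaks over a window, 37 had the heptamer in it, at a median of 8 bp from the summit (quartiles 4 and 16). At 27 shared FOSL2 peaks, 23 had it, at a median of 5 bp (3 and 22.5). Within 25 bp of the summit lay 29 of the 37 and 19 of the 23. ATF3 summits showed no such closeness. The 23 shared ATF3 peaks with a heptamer in a window they covered had it at a median of 322 bp from the ATF3 summit, and 0 of 23 within 25 bp. The 329 ATF3-only peaks with a CRE in a window had it at a median of 248.5 bp, with 11 (3.34%) within 25 bp. ATF3 peaks were longer (median 381 bp for ATF3 alone and 692.5 bp at shared sites, against 298 bp for FOSL2 alone), and longer peaks allow longer distances; the part of peak length in this was not tested.

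The promoters of ATF3-only peaks were richer in GC than those of FOSL2-only peaks. Median GC content was 64.0% under ATF3 alone, 61.7% under shared FOSL2 peaks, 52.7% for FOSL2-only windows and 47.7% for windows with neither factor. Over all windows it was 52.7%, as for FOSL2-only windows. Windows under ATF3 alone held the CRE in 3.12% (2.83 to 3.44), windows under a FOSL2 peak in 3 of 87 (3.45%; 0.717 to 9.75), windows with neither in 0.916% (0.788 to 1.06) and all windows in 1.79%. In the 895 windows holding a summit of the most significant ATF3 quintile the CRE share was 1.90% (1.11 to 3.02). Below 50% GC the CRE shares were 1.94% (0.891 to 3.65) under ATF3 alone and 0.555% (0.432 to 0.702) with neither. From 50 to 60% GC they were 3.38% (2.79 to 4.06) and 1.50% (1.23 to 1.82), and in both bands the intervals are apart. At 70% GC and over they were 2.47% (1.95 to 3.08) and 0 of 51 (0 to 6.98). Among windows of 60 to 70% GC they were 3.41% (2.97 to 3.90) and 1.98% (0.908 to 3.72), and in these 2 bands the intervals overlap. In the same band the AP-1 heptamer was in 22 of 28 FOSL2 windows (78.6%; 59.0 to 91.7), in 2.76% of ATF3-only windows and in 5.05% of windows with neither. The C/EBP-ATF composite was rare throughout, in 0.404% of ATF3-only windows and 0.895% of all windows. A match is a word in a window, and words outside these windows were not searched.

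**Figure D1:**
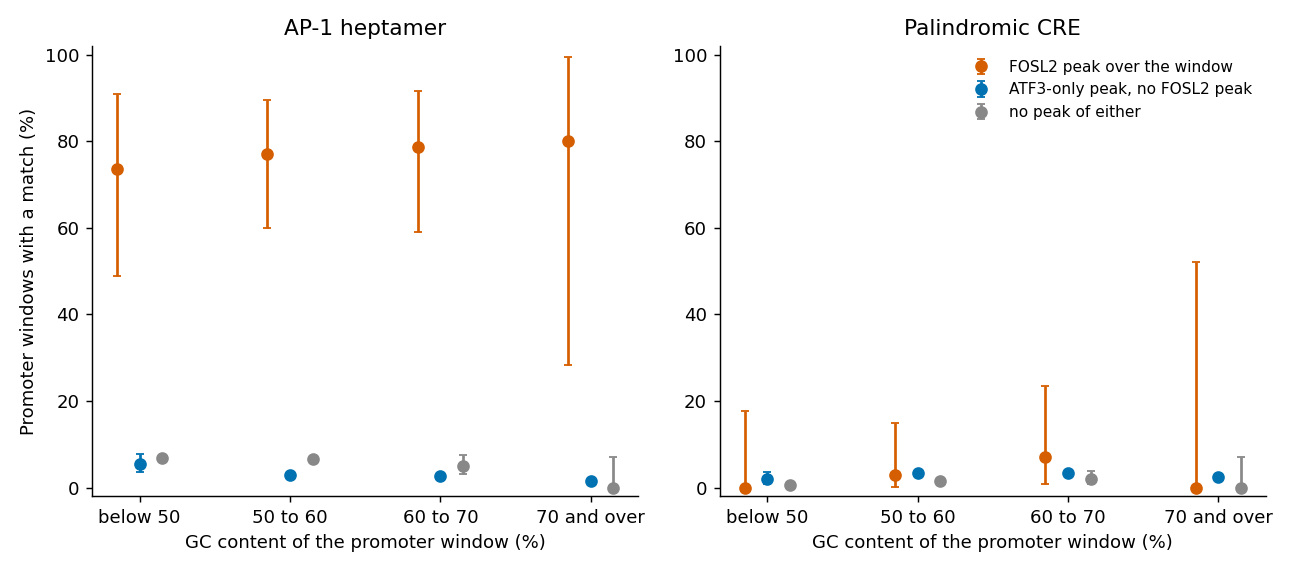
Share of RefSeq promoter windows (y axis, %) that hold the AP-1 heptamer (left) or the palindromic CRE (right), by GC content of the window (x axis, %). Points are shares with exact 95% intervals for windows under a FOSL2 peak (orange), under an ATF3-only peak without FOSL2 (blue) and under neither (grey). In every GC band the AP-1 share of FOSL2 windows lies above 70% and those of the other windows below 7%.

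The promoters with the strongest ATF3-only summits looked different. Shown are H1f0, which encodes a replacement linker histone, and Cdkn1b, which encodes the cell cycle inhibitor p27, ranks 1 and 3 of 322 promoters chosen by the same rule. ATF3 fold enrichment there was 25.4 and 21.5. Neither stretch contains any of the 3 motifs, so there are no capitals.
H1f0 (chr15:79028121-79028211, plus strand): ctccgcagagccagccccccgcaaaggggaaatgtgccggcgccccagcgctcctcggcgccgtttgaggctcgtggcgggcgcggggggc
Cdkn1b (chr6:134920240-134920360, plus strand): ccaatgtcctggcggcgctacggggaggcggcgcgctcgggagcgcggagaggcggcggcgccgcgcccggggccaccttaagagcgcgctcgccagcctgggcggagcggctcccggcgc

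The lists overlapped little. Of the FOSL2 peaks 3.08% (2.53 to 3.71) lay over an ATF3 peak, and of the ATF3 peaks 0.232% (0.1899 to 0.2804) lay over a FOSL2 peak. Even shared sites were often offset: summits lay a median of 218.5 bp apart, and 23 of 106 pairs had summits within 100 bp of each other, which is 0.668% of the FOSL2 peaks by that criterion. FOSL2-only peaks were a median of 18828 bp from the nearest ATF3 peak, and 187 (5.60%) lay within 1 kb of one. With the ATF3 list cut to the 3444 most significant peaks the shared fraction was 0.987% (0.685 to 1.38). In Pbrm1 KO cells at 48 h, 618 of 7381 FOSL2 peaks (8.37%; 7.75 to 9.03) lay over an ATF3 peak. The KO ATF3 list is longer, with 144513 peaks, and 9.09% of the control FOSL2 peaks lay over it.

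Most peaks of each factor recurred in its KO list, which had not been used to define the classes. Of the FOSL2-only peaks 89.0% (87.9 to 90.0) were in the KO FOSL2 list and 7.04% in the KO ATF3 list. Of the ATF3-only peaks 66.6% (66.2 to 67.1) were in the KO ATF3 list, which holds 144513 peaks, and 0.239% in the KO FOSL2 list. At shared sites 86.8% of the ATF3 peaks were in the KO ATF3 list and 88.7% of the FOSL2 peaks in the KO FOSL2 list. FOSB, a FOS family relative crosslinked as FOSL2 was, shared 138 of its 188 control peaks at 48 h with FOSL2 (73.4%; 66.5 to 79.6) and 21 with ATF3 (11.2%; 7.05 to 16.6).

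ATF3-only and shared peaks lay nearer to gene ends than FOSL2-only peaks. Within 2 kb of an end of a protein-coding gene were 37.3% (36.8 to 37.7) of ATF3-only peaks, 51.9% (42.0 to 61.7) of shared ATF3 peaks and 7.04% (6.20 to 7.96) of FOSL2-only peaks. The median distance was 5807.5 bp, 1070.5 bp and 26915.5 bp in that order. Outside chromosome 18, a transcription start lay under 21.0% of ATF3-only peaks and 1.03% of FOSL2-only peaks. More than 50 kb from any gene end were 19.4% of ATF3-only and 34.9% of FOSL2-only peaks. Gene spans held 69.7% and 48.2%, and 34.8% and 44.7% were inside a span and more than 2 kb from any gene end. Over the 19 autosomes the share near gene ends ranged from 33.3 to 42.5% for ATF3 alone and from 2.08 to 12.5% for FOSL2 alone, so the ranges did not meet.

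**Figure D2:**
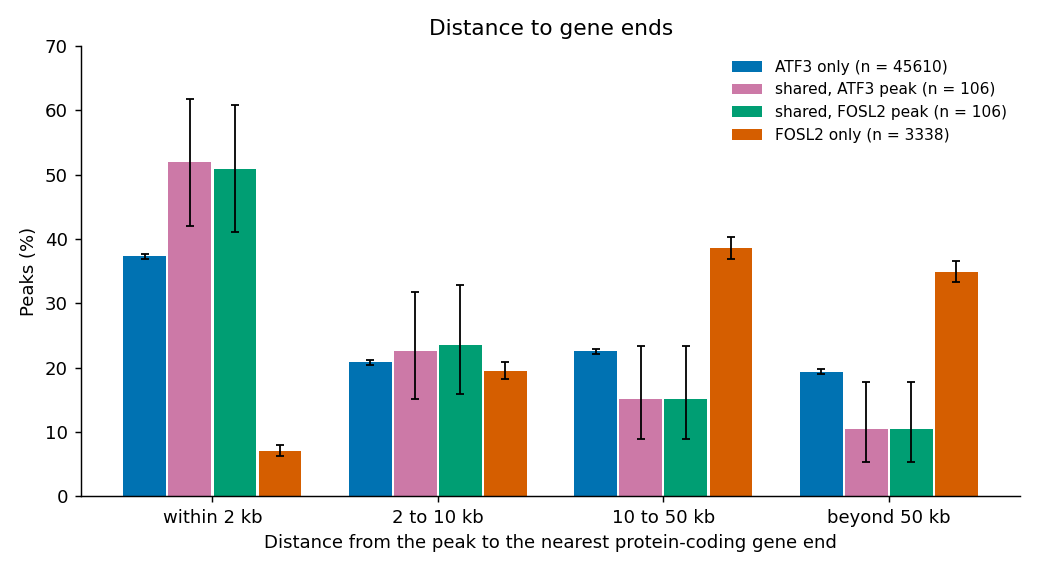
Share of peaks (y axis, %) by distance to the nearest end of a protein-coding gene (x axis, 4 ranges), with exact 95% intervals, for the 4 sets of peaks. FOSL2-only peaks have the lowest bar within 2 kb (7.04%) and the highest bars beyond 10 kb; shared sites stand with the ATF3 peaks.

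The excess of shared over ATF3-only peaks near gene ends, 14.6 percentage points (4.68 to 24.4), depended on the strength of the ATF3 peaks. Among the most significant quintile of the ATF3 list 72.2% of 54 shared peaks and 74.99% of 9090 ATF3-only peaks lay within 2 kb of a gene end, and with the list cut to 3444 peaks the difference was -12.6 points (-30.7 to 1.73).

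Promoter marks divided the classes further. H3K4me3, the mark of active and poised promoters, overlapped 62.1% (61.7 to 62.6) of ATF3-only peaks at 48 h, 81.1% of shared ATF3 peaks and 0.330% of FOSL2-only peaks. H3K14ac, a promoter-associated acetylation, overlapped 67.5%, 88.7% and 0.539%. H3K4me1, found at enhancers and promoter flanks, overlapped 25.5%, 33.0% and 0 of 3338, which allows a share of up to 0.0899% by the count of 3 peaks and 0.110% by the exact interval, and within 1 kb of FOSL2-only peaks it reached 1.05%. Read the other way, 94.0% of H3K4me3 peaks and 93.7% of H3K4me1 peaks lay over an ATF3 peak, and 0.326% and 0.132% over a FOSL2 peak. The H3K4me1 list held 12863 peaks, 24.4% of ATF3-only peaks carried it together with H3K4me3, and how far it marks enhancers in these cells was not tested.

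In untreated cells H3K27ac lay over most of the later shared sites. At 0 h it overlapped 94.3% of shared ATF3 peaks, 38.1% of ATF3-only peaks and 3.39% of FOSL2-only peaks, and at 48 h 71.7%, 26.6% and 2.28%. The 0 h H3K27ac list was longer (20507 against 15962 peaks), and the part of list length in this was not tested. H3K4me3 at 0 h overlapped 86.8% of shared ATF3 peaks. The other lists of 0 h overlapped fewer of them, H3K18ac and H3K4me1 32.1% each and H3K14ac 17.9%.

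Distance from gene ends did not remove the contrast in promoter marks. Beyond 2 kb of a gene end, 48.1% (47.5 to 48.7) of the 28608 ATF3-only peaks still overlapped H3K4me3 and 56.9% H3K14ac. Of the ATF3-only peaks 25.7% overlapped none of the 5 marks, against 87.4% of the FOSL2-only peaks.

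Where H3K18ac or H3K27ac lay within 1 kb of a FOSL2-only peak at 48 h, it more often lay beside the peak than over it. None of the histone marks profiled at 48 h lay within 1 kb of 54.2% of FOSL2-only peaks. Shared FOSL2 peaks went the other way. H3K18ac overlapped 41.5% of them and lay within 1 kb without touching in 19.8%, and for H3K27ac the shares were 67.9% and 4.72%. H3K18ac, deposited by the coactivators CBP and p300, overlapped 11.95% of FOSL2-only peaks at 48 h and lay within 1 kb of 41.5%. H3K27ac, the usual mark of active enhancers and promoters, overlapped 2.28% and lay within 1 kb of 16.8%. In 29.6% of FOSL2-only peaks H3K18ac was within 1 kb without touching the peak, and in 10.8% it was on both sides without touching. For ATF3-only peaks the curves were flat: overlap with H3K18ac was 14.96%, and only 1.8 to 3.2% of peaks had a mark within 1 kb without touching it. H3K18ac within 1 kb but no H3K4me3 there was found at 40.1% of FOSL2-only and 0.583% of ATF3-only peaks. In the lists of untreated cells H3K18ac lay within 1 kb of 26.2% of the later FOSL2-only sites and H3K27ac within 1 kb of 11.9%, in single libraries whose depth is unknown.

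**Figure D3:**
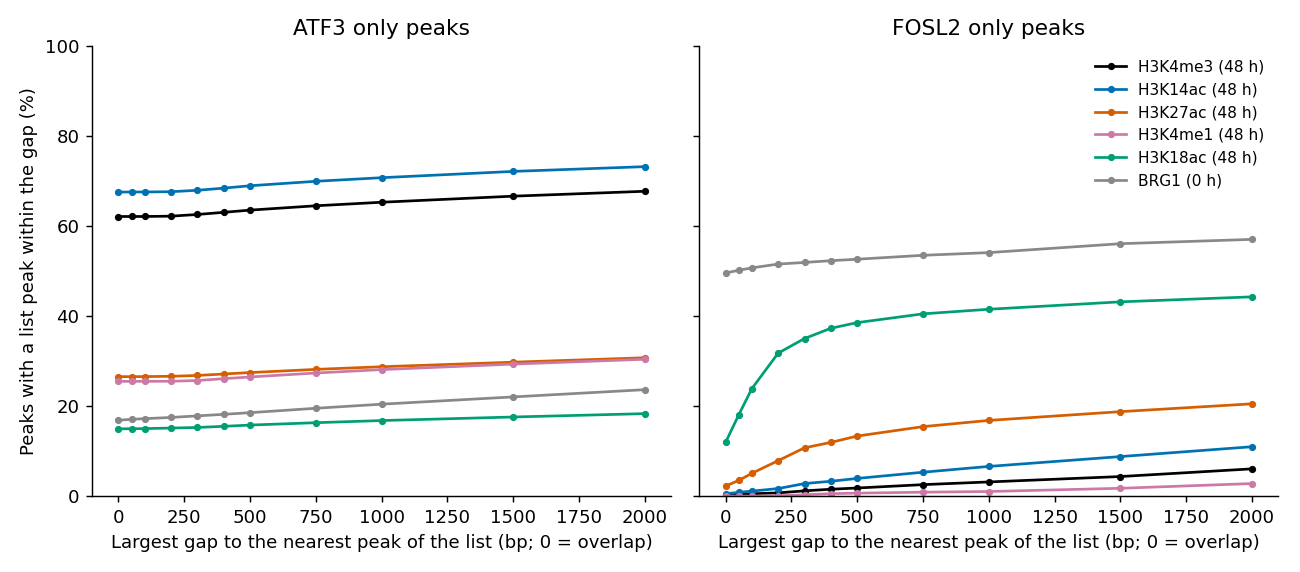
Cumulative share of ATF3-only (left) and FOSL2-only (right) peaks (y axis, %) with a peak of each list within a given gap (x axis, bp; 0 is overlap). The ATF3-only curves are nearly flat, while H3K18ac near FOSL2-only peaks climbs from 11.95% at 0 bp to 41.5% at 1000 bp.

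BRG1, the ATPase of the SWI/SNF remodellers, was profiled in untreated cells and was the chromatin list that overlapped the highest share of FOSL2-only peaks. It lay over 16.9% (16.5 to 17.2) of ATF3-only peaks, 49.6% (47.9 to 51.3) of FOSL2-only peaks and 85.8% (77.7 to 91.9) of shared ATF3 peaks. The order was the same with summits inside a BRG1 peak (13.9%, 45.2% and 83.0%). It turned with the ATF3 list cut to the 3444 most significant peaks, where BRG1 overlapped 74.2% of ATF3-only and 50.2% of FOSL2-only peaks. In the most significant quintile of each list the shares were 53.7% and 64.4%. BRG1 chromatin was crosslinked as for ATF3. Away from gene ends the gap widened: beyond 2 kb of a gene end 6.54% of ATF3-only and 48.7% of FOSL2-only peaks overlapped BRG1. FOSL2-only peaks with BRG1 at 0 h had H3K18ac within 1 kb at 48 h in 48.2%, and those without it in 34.9%. ATF3-only peaks with BRG1 had H3K27ac within 1 kb in 84.2%, and those without in 17.5%. Autosome ranges were 13.6 to 24.2% for ATF3 alone and 34.6 to 60.8% for FOSL2 alone. The BRG1 list was called down to a q of about 0.1, and with BRG1 peaks of −log10 q of at least 5 it covered 0.403% of ATF3-only, 11.7% of FOSL2-only and 15.1% of shared ATF3 peaks.

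PHF10, a subunit of the PBAF form of SWI/SNF, overlapped a higher share of ATF3 peaks than of FOSL2-only peaks. Its 2 control libraries at 48 h overlapped 58.7% and 90.2% of ATF3-only peaks, 87.7% and 94.3% of shared ATF3 peaks, and 2.94% and 6.74% of FOSL2-only peaks. At 0 h the shares were 21.6% and 30.4% for ATF3 alone, and 0 of 3338 and 0.0599% for FOSL2 alone. Both replicates at each time put the FOSL2-only sites lowest. The 2 lists of 48 h were long, with 43549 and 102434 peaks. Of these PHF10 peaks 56.2% and 35.3% lay over an ATF3 peak, and 0.413% and 0.313% over a FOSL2 peak. PHF10 and ATF3 share the dual crosslink, which cannot be told apart from the factor here.

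**Figure D4:**
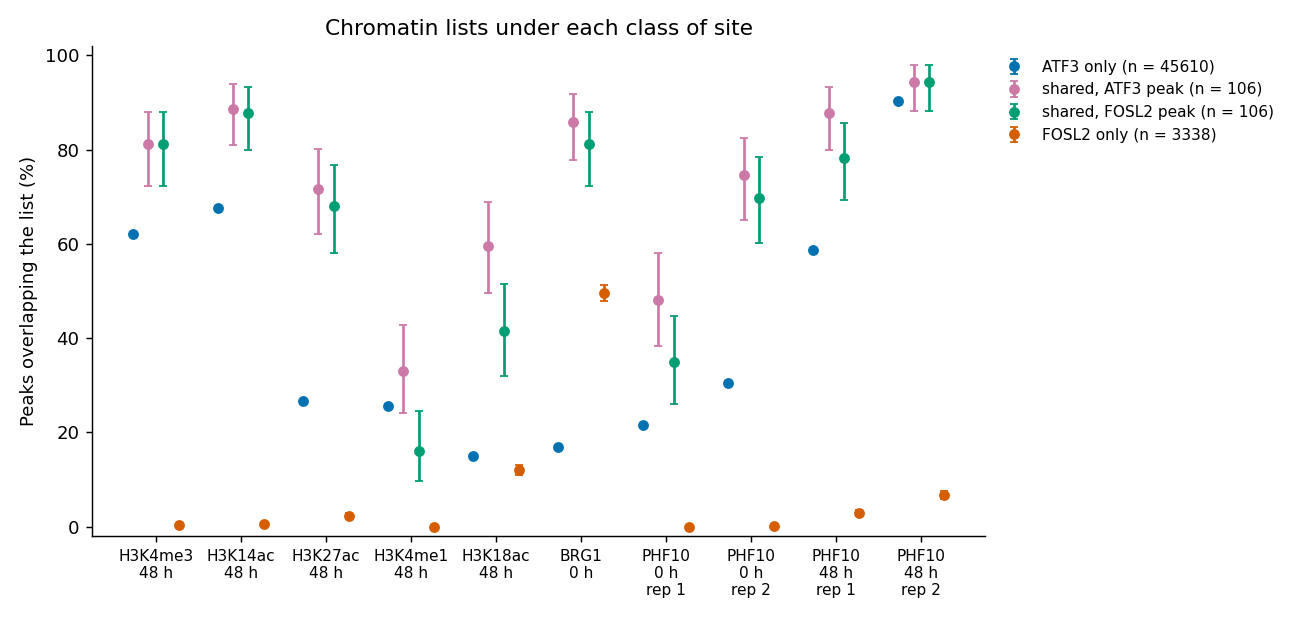
Share of peaks in each class (y axis, %) that overlap a peak of each chromatin list (x axis: 5 histone marks and PHF10 at 48 h, BRG1 and PHF10 at 0 h), with exact 95% intervals. FOSL2-only points lie near 0 for every list but H3K18ac (11.95%) and BRG1 (49.6%), and the shared sites lie at or above the ATF3-only points except for H3K4me1 under FOSL2 peaks.

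Surroundings varied with the significance of a peak over a wider range for ATF3 than for FOSL2. From the most to the least significant quintile of the ATF3 list, overlap with H3K4me3 was 97.6, 85.5, 62.7, 39.7 and 25.3%, and with BRG1 53.9, 14.9, 7.58, 5.16 and 3.62%. H3K27ac went from 80.3% to 1.94%. Over the quintiles of the FOSL2 list the share within 2 kb of a gene end stayed between 7.26 and 9.29%, and BRG1 went from 65.2% to 38.1%. Recurrence in the KO list went from 92.8% to 46.0% for ATF3 and from 99.4% to 70.1% for FOSL2. In the most significant ATF3 quintile, shared peaks had BRG1 in 94.4% and ATF3-only peaks in 53.7%, while H3K4me3 (96.3% and 97.6%) did not separate them.

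**Figure D5:**
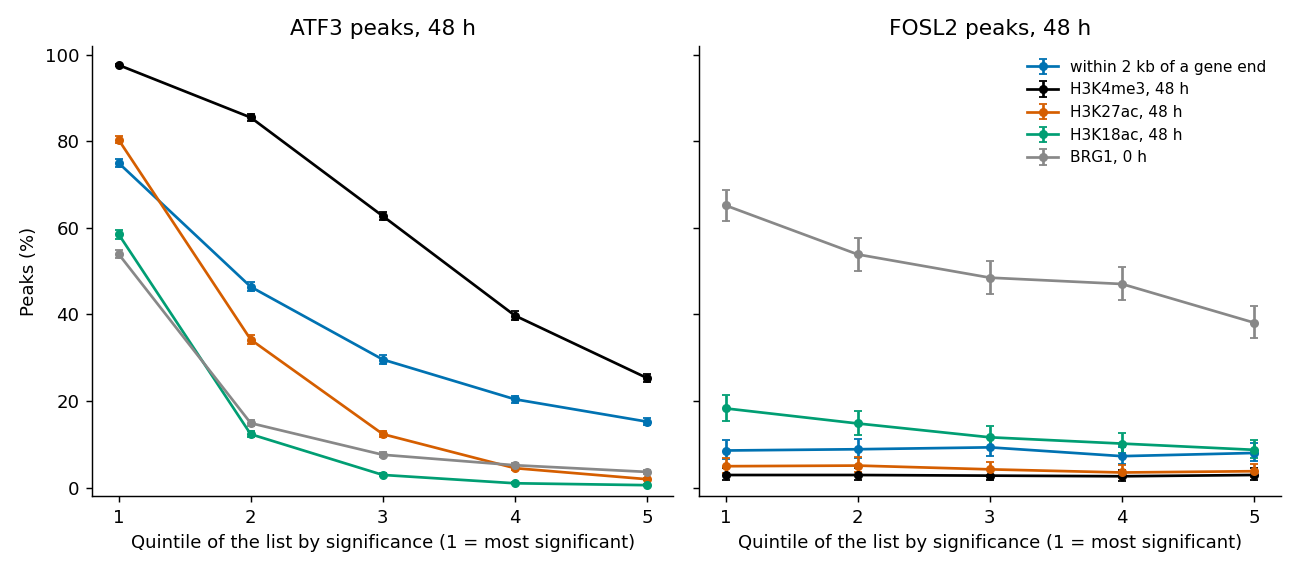
Share of ATF3 peaks (left) and FOSL2 peaks (right) with each feature (y axis, %) by quintile of the list from the most (1) to the least (5) significant (x axis), with exact 95% intervals. The ATF3 lines descend (H3K4me3 from 97.6 to 25.3%), and the FOSL2 lines other than BRG1 stay below 20%.

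The strongest sites of each class named different genes. The strongest ATF3-only peaks lay 705 bp (75.8-fold enrichment; chr16:30063169-30064652) and 2202 bp (71.1) from Hes1, the main transcriptional repressor of the Notch pathway, and a further one 55999 bp from it (44.6). Others of the first 10 lay in Rev1, a translesion DNA polymerase gene (50.2), in Raph1, a regulator of the actin cytoskeleton (38.1), and in Rbpj, the DNA-binding partner of Notch (26.98). Of these 10, 9 overlapped BRG1 and recurred in the KO, and all 10 overlapped H3K4me3. In the most significant ATF3 quintile the shares were 53.9% for BRG1, 92.8% for recurrence and 97.6% for H3K4me3. The peaks at Rev1, Raph1, H1f0 and the nearest 2 at Hes1 were also in the untreated ATF3 list.

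The strongest FOSL2-only peak lay inside Nell2, a secreted neural glycoprotein gene (46.8; chr15:95276467-95277080). Those after it lay 3493 bp from Ankrd12 (34.4), 31711 bp from Coq2, a ubiquinone synthesis gene (19.8), and inside Sh3gl3 (19.5) and Atxn1 (19.5). Nearer to genes were peaks 2885 bp from Anxa1, the annexin A1 gene (18.9), and in Emp3, an epithelial membrane protein gene (18.7). All 10 recurred in the KO, none overlapped H3K4me3, and 6 overlapped BRG1. In the most significant FOSL2 quintile the shares were 99.4% for recurrence, 2.90% for H3K4me3 and 65.2% for BRG1. Of the 10, the peaks near Ankrd12 and in Atxn1 were in the untreated FOSL2 list.

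Shared sites with the strongest FOSL2 signal lay 16271 bp from Azin1, an antizyme inhibitor gene (13.5; chr15:38470720-38471159), at Tmem65 (12.9) and at Cav2 (12.4). A shared FOSL2 peak lay 40957 bp from Atf3 itself (10.4). By ATF3 signal the first were a site over 100 kb from any gene (32.4), Trib1, a pseudokinase of the MAP kinase and C/EBP pathways (18.9), and Rnf39 (18.7).

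Most genes with a FOSL2 peak also had an ATF3 peak. Of 21887 protein-coding genes, 76.4% had an ATF3 peak in the gene span or 10 kb to either side and 9.22% had a FOSL2 peak. ATF3 without FOSL2 was found at 67.8%, both at 8.62%, overlapping peaks of both at 0.603% and FOSL2 without ATF3 at 0.599%, 131 genes. Of the genes with FOSL2, 93.5% also had ATF3, although 3.08% of the FOSL2 peaks touched one. With the ATF3 list cut to 3444 peaks, the genes with FOSL2 and no ATF3 numbered 1265. Within 2 kb of a gene end, 64.9% of genes had ATF3, 1.46% had FOSL2 and 57 genes had FOSL2 alone.

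Of 45 mesenchymal and TGFβ response genes 42 had ATF3 and 12 had FOSL2, 0 of them without ATF3 and 0 with an overlapping pair. Of 35 epithelial genes 34 had ATF3 and 11 had FOSL2, 1 without ATF3 (Ehf) and 2 with a pair, F11r among them. The 20 AP-1 and ATF genes had ATF3 at 19 and FOSL2 at 5, with pairs at Junb and Fosl2. Of the 7 small MAF and BACH genes, whose products bind relatives of the AP-1 site, 7 had ATF3 and 5 had FOSL2, with pairs at Maff and Mafk. FOSL2 was found at 5 of 20 Hippo pathway targets, 4 of 20 immediate early and growth arrest genes, 3 of 26 SWI/SNF subunit genes, 1 of 4 Id genes, 2 of 25 integrated stress response genes and 1 of 20 housekeeping genes. ATF3 was at 19, 20, 26, 4, 24 and 20 of them. These shares are descriptions against the 9.22% and 76.4% over all genes, and genes near marked promoters or of greater length were not matched.

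The profiled proteins' own genes fell into several classes. At Fosl2 both factors overlapped (chr5:32134926-32136989 for ATF3, 12.9-fold; chr5:32135711-32135995 for FOSL2, 9.63-fold), 852 bp apart at the summits, over H3K4me3, H3K27ac, H3K14ac, H3K18ac and BRG1. Atf3 had an ATF3 peak across its end (12.7; chr1:191182426-191184046) and no FOSL2 peak in its window. Fosb (12.04), Smarca4, which encodes BRG1 (8.24), and Pbrm1 (8.35) had ATF3 alone. At Phf10 both occurred apart, ATF3 at a gene end (10.9) and FOSL2 4485 bp from one (6.74).

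Overlapping pairs lay at 9 genes of the lists. At Junb, a JUN partner of FOSL2, the pair was 6674 bp from the gene, nearer to Hook2 (FOSL2 11.4-fold, ATF3 5.74-fold; chr8:84985422-84985895). At Klf10, a TGFβ early response gene, the FOSL2 peak (6.26) lay inside a broad ATF3 peak (8.18). The stronger FOSL2 peaks of Dusp1 (9.75), Maff (8.83) and Bicral, a SWI/SNF subunit gene (11.2), were not the ones in the pair. The paired FOSL2 peaks there had 4.95-, 4.12- and 5.24-fold enrichment. Pairs also lay at Mafk and F11r. Of the 9 paired FOSL2 peaks 7 overlapped H3K4me3 and 8 BRG1, against 81.1% for each over all 106 shared FOSL2 peaks.

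In 40 other genes of the lists both factors occurred at separate positions, with the strongest peaks of each a median of 21944 bp apart. In 26 of the 40 the ATF3 peak was within 2 kb of an end of the gene, and in 4 the FOSL2 peak was. H3K4me3 overlapped 35 of the ATF3 peaks and 0 of the FOSL2 peaks, while BRG1 overlapped 28 and 29. H3K18ac lay within 1 kb of 28 and 23. H3K14ac overlapped 37 of the ATF3 peaks and 1 of the FOSL2 peaks. The genes were taken for having no overlapping pair, and each peak is the strongest of its factor at the gene. H3K4me3, BRG1 and H3K14ac overlapped 62.1%, 16.9% and 67.5% of all ATF3-only peaks, and 0.330%, 49.6% and 0.539% of all FOSL2-only peaks. H3K18ac lay within 1 kb of 16.8% and 41.5% of them. In the most significant ATF3 quintile H3K4me3 overlapped 97.6%, BRG1 53.9% and H3K14ac 98.2%, and H3K18ac lay within 1 kb of 60.1%.

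Krt8, a keratin of simple epithelium, had ATF3 at chr15:102003936-102004222 (9.87) over H3K4me3, and FOSL2 996 bp away at chr15:102005218-102005690 (13.3), under BRG1 and H3K18ac and not under H3K4me3, which lay within 1 kb. Vim, the mesenchymal filament protein, had ATF3 at chr2:13574331-13575108 (6.20) over H3K4me3 and FOSL2 569 bp away (7.81). Bach1, a repressor at MAF sites, had them 417 bp apart (ATF3 11.2, FOSL2 5.47). Itga5, the fibronectin receptor chain, had FOSL2 at 7.75-fold, 3658 bp from its ATF3 peak. Smad3 and Smad7, a transducer and an inhibitor of TGFβ signalling, had ATF3 at or near a gene end (11.7 and 16.6) and FOSL2 27920 and 3923 bp from one (5.47 and 5.73). At Cdh1, which encodes E-cadherin, FOSL2 (4.94) lay 54309 bp from the strongest ATF3 peak (12.7).

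Genes with ATF3 and no FOSL2 were led by Mmp2, a gelatinase (16.0; chr8:92827176-92827864), Smarcd3, a SWI/SNF subunit (15.0), Vldlr, a lipoprotein receptor (14.8), Stc2, a stress-induced glycoprotein (14.5), and Arid1a, the BAF subunit (14.5). Hmga2 (14.3) and Zeb1 (13.98), 2 drivers of the mesenchymal state, and Tgfbr1, the type I TGFβ receptor (13.7), followed with Polr2a (13.9), the large subunit of RNA polymerase II. Egr2 (13.5), Id3 (13.5), St14 (13.4), Cebpg (13.3), Klf4 (13.3) and Mthfd2 (13.2) completed the first 15. Each of these 15 peaks overlapped H3K4me3 and recurred in the KO list, against 97.6% and 92.8% of the most significant ATF3 quintile. FOSL2 without ATF3 was limited in the lists to Ehf, an epithelial ETS factor (7.55; chr2:103302197-103302469), and to Afp (5.62) and Adipoq (5.47), which mark liver and fat.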

How the data were processed

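Peak lists were used as deposited, 1 per ChIP library against its input. Per the submitters' processing notes, MACS3 3.0.0a7, Bowtie2 2.3.3, deepTools 3.5.1, fastp 0.19.5, Partek 11.0.24.0325 and the mm10 build were used, with no roles or settings given. The deposited pileup signal (reads stacked at a peak) was not compared between lists. The deposited −log10 p and −log10 q values ranked or filtered peaks within a list, as did the deposited fold enrichment, the authors' ratio of ChIP over input. The lowest −log10 q was 1.31 for ATF3, 1.58 for FOSL2 and 1.01 for BRG1. Coordinates are as deposited; whether starts count from 0 or 1 is not stated, which moves them by 1 bp. High-signal regions were not removed.

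Only peaks on assembled autosomes and sex chromosomes entered. Overlap was 1 bp or more. Gene spans and promoter windows came from RefSeq (GRCm38.p6, the assembly of mm10); the gene table has no strand, so either end stood for a start, and promoter windows of chromosome 18 were not used. Peaks were not assigned to exons, introns or untranslated regions. Shares were computed in Python 3.11.15 with SciPy 1.17.1 and exact intervals; the interval of a difference combines the 2 exact intervals. The overlap scripts were tested on simulated peaks.

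Named genes were list members with a peak of 1 factor and none of the other, and members with an overlapping pair, up to 15 per class by fold of the strongest peak. The 10 strongest peaks of each class and 6 genes of profiled proteins were added; part of these is given, and some genes are not reported here. Genes with separate peaks of both factors, and promoters beyond the strongest, were chosen after their values were seen. Members and lists were chosen with earlier results of these data known. Alternatives covered significance, fold, list length, the overlap rule, gene windows and summits. Added after seeing the data were leaving out sites of the 0 h lists, ATF3 peaks beyond 2 kb, the most significant quintile, and each alternative to the differences between FOSL2-only and ATF3-only peaks.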

Additional observations from a re-analysis of the deposited data

How the results depend on the processing

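The share of FOSL2 peaks over an ATF3 peak (3.08%) was 0.987% with the ATF3 list cut to equal length, 2.35% at an overlap of 50% of the shorter peak and 0.668% with summits within 100 bp. The differences between shared and ATF3-only peaks were 14.6 percentage points near gene ends, 19.01 for H3K4me3, 45.1 for H3K27ac and 69.0 for BRG1. With lists of equal length they were -12.6, -1.83, 0.569 and 17.0 points, and the first 2 turned. Within the most significant quintile of ATF3 peaks, an alternative chosen after seeing the data, they were -2.77, -1.305, 12.3 and 40.7, and the same 2 turned. Shared sites then number 34 and 54. The BRG1 difference was 14.7 points with BRG1 peaks of −log10 q of at least 5, and 77.8 for ATF3 peaks over 2 kb from a gene end, a setting also chosen after seeing the data. The differences of FOSL2-only minus ATF3-only peaks were -30.2 points near gene ends, -61.8 for H3K4me3, -24.3 for H3K27ac and 32.7 for BRG1, and their alternatives were chosen after seeing the data. With lists of equal length they were -75.4, -97.0, -90.1 and -24.0, so the BRG1 difference turned, and in the most significant quintile of each list -67.8, -97.5, -77.9 and 10.7. With BRG1 peaks of −log10 q of at least 5 the BRG1 difference was 11.3. Genes with FOSL2 and no ATF3 (131) numbered 57 by gene ends within 2 kb and 1265 with lists of equal length. The cause of each shift was not tested beyond the fewer peaks that equal length leaves. The other 21 planned and 8 added values stayed within the interval of the result, or within 1.5 times the gene count, in the same direction. No paired analysis was possible because each factor had 1 library, and no library could be left out. Depth is unknown, so a peak missing from a list is not evidence that the site was unbound.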

Other observations

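Other control lists overlapped these 2 lists to differing degrees, with 138 of 188 FOSB peaks (73.4%) over a FOSL2 peak as given above. The ATF3 list at 24 h held 2004 peaks, of which 27.6% (25.7 to 29.7) lay over an ATF3 peak of 48 h and 6 over a FOSL2 peak of 48 h. Of all BRG1 peaks at 0 h, 25.5% lay over an ATF3 peak of 48 h and 5.89% over a FOSL2 peak of 48 h, from a FOSL2 list of 3444 peaks. FOSB peaks lay under 10.4% of shared sites (5.30 to 17.8), 3.80% of FOSL2-only peaks (3.18 to 4.51) and 0.0219% of ATF3-only peaks.

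Over all protein-coding genes 76.4% had an ATF3 peak and 9.22% a FOSL2 peak. Among 17 marker genes of other cell types, 12 (70.6%) had an ATF3 peak and 3 (17.6%) a FOSL2 peak. These were Afp and Adipoq, without ATF3, and Cdh5, an endothelial cadherin gene, with FOSL2 at 5.35-fold enrichment, 21685 bp from its strongest ATF3 peak. At 0 h, Ehf had neither H3K4me3 nor H3K27ac within 2 kb of a gene end, and it was the only epithelial list member with FOSL2 and no ATF3 at 48 h.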
